A study of Homo sapiens with 2 samples.

Results

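The genes described here are CDK14, the kinase knocked down in this study, and the related kinases CDK16, CDK17, CDK18 and CDK5. With them are the cyclin Y genes CCNY and CCNYL1, the Wnt co-receptor genes LRP5 and LRP6, and CAPRIN2. They were chosen by gene symbol, 10 of the 29452 gene rows in the deposited table, and each symbol matched 1 row. The cells were MDA-MB-231, an established human line of triple-negative breast cancer, and RNA was sequenced as 1 library from cells carrying a short hairpin RNA against CDK14 (CDK14-sh) and 1 from cells carrying a scramble control hairpin. The sources used here do not give the hairpin sequence, the vector, the time after knockdown or whether each line was 1 clone. Reads assigned to genes numbered 15478156 for CDK14-sh and 17217564 for the scramble control. With 1 library per group there was no replicate check and no test, and "higher" and "lower" below describe these 2 libraries.

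CDK14 is a cyclin-dependent kinase that lacks activity alone and is switched on by cyclin Y, a cyclin anchored to the plasma membrane by a lipid tail. The active pair phosphorylates serines in short, repeated PPPSP motifs in the cytoplasmic tail of LRP6, which primes the receptor for Wnt signalling and does so most around mitosis. CAPRIN2, an RNA-binding protein, can hold LRP6 and the CDK14 and cyclin Y pair together. CDK16, CDK17 and CDK18 share a PCTAIRE motif in the helix that contacts the cyclin, where CDK14 has PFTAIRE, and cyclin Y also activates CDK16. CDK5 lies on a neighbouring branch of the kinase family and is activated by the proteins p35 and p39 instead of a cyclin.

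The bases that encode these motifs are shown first, since the motifs tie the genes together. Each run is 30 bases of coding sequence from GENCODE v29 transcripts (GRCh38), with the codons of the named motif in capitals, and in the first 4 kinases it crosses an exon junction.
CDK14 (PFTAIRE): acaCCTTTCACAGCTATCAGGGAAgcttct
CDK16 (PCTAIRE): gcaCCCTGCACCGCCATCCGGGAAgtgtcc
CDK17 (PCTAIRE): gcaCCCTGCACAGCTATAAGAGAAgtttca
CDK18 (PCTAIRE): gcgCCCTGCACTGCCATCCGAGAGgtgtct
CDK5 (PSSALRE): gtgCCGAGTTCCGCCCTCCGGGAGatctgc
LRP6 (PPPSP): ttgaacCCTCCACCATCCCCAgccacagag
LRP5 (PPPSP): ctgaacCCGCCGCCCTCCCCGgccacggac
The CDK5 run lies at chr7:151056943-151056972 on the minus strand, the LRP6 run at chr12:12124630-12124659 on the minus strand and the LRP5 run at chr11:68446439-68446468 on the plus strand. Over the 21 motif bases, CDK14 shared 16 with CDK16, CDK17 shared 16 with CDK16, and CDK18 shared 18 with CDK16. The exact spelling PPPSP, the only form counted, occurred 2 times in the longest coding sequence of LRP6 and 2 times in that of LRP5. Other spellings of the motif were not searched for, and the first occurrence of PPPSP is the one shown. Over its 15 bases the genes shared 11.

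The libraries carried the markers of the line. VIM (vimentin) stood at 146 RPKM in CDK14-sh and 249 RPKM in the scramble control, and CD44 and AXL at 79.7 to 130 RPKM across both. RPKM is scaled to exon length and to the reads assigned to genes. The length counts all annotated exons of a gene, used or not, so levels of different genes compare only roughly. CAV1 stood at 36.1 RPKM in CDK14-sh and 65.2 RPKM in the scramble control, and MSN at 84.8 RPKM in CDK14-sh and 218 RPKM in the scramble control. ESR1, PGR and CDH1 had at most 8 reads in either library and ERBB2 2.96 RPKM in CDK14-sh and 2.33 RPKM in the scramble control. Of the markers of other cells, PTPRC had 3 reads in each library, PDGFRB 3 in CDK14-sh and 14 reads in the scramble control, and PECAM1 20 in CDK14-sh and 52 reads in the scramble control. COL1A1 stood at 1.99 RPKM in CDK14-sh and 1.65 RPKM in the scramble control.

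Of the 10 genes, 9 reached 1 RPKM in the higher library, the level required for a ratio to be counted. CDK18, which lies on chromosome 1 at chr1:205504595-205532793 on the plus strand, did not. It had 0 reads in CDK14-sh, where the 3-read limit is 0.0284 RPKM, and 3 reads in the scramble control, a level of 0.0255 RPKM. Both values are at or under that floor, so no fold is given, and CDK18 transcripts were at the limit of detection in both libraries.

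CDK14 was the lowest of the 9 genes with a counted level in both libraries and the one with the largest fold between them. Its row spans chr7:90466424-91210590 on the plus strand and holds 6841 exon bases. It had 58 reads in CDK14-sh, a level of 0.548 RPKM (95% counting interval 0.416 to 0.708), against 292 reads in the scramble control, a level of 2.48 RPKM (2.20 to 2.78). The level intervals are exact Poisson intervals and those of ratios are Clopper-Pearson intervals, and both cover counting error only. At the depth of the CDK14-sh library the control level would correspond to 263 reads. The CDK14-sh level was 22.1% of the control (16.4% to 29.4%). In RNA from a whole culture, a partial loss in every cell and a full loss in some of the cells cannot be told apart, nor can fewer cells of a type and less RNA per cell. Among the levels of all 29452 rows, CDK14 stood at percentile 44.2 in CDK14-sh and at percentile 64.2 in the scramble control.

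**Figure D1:**
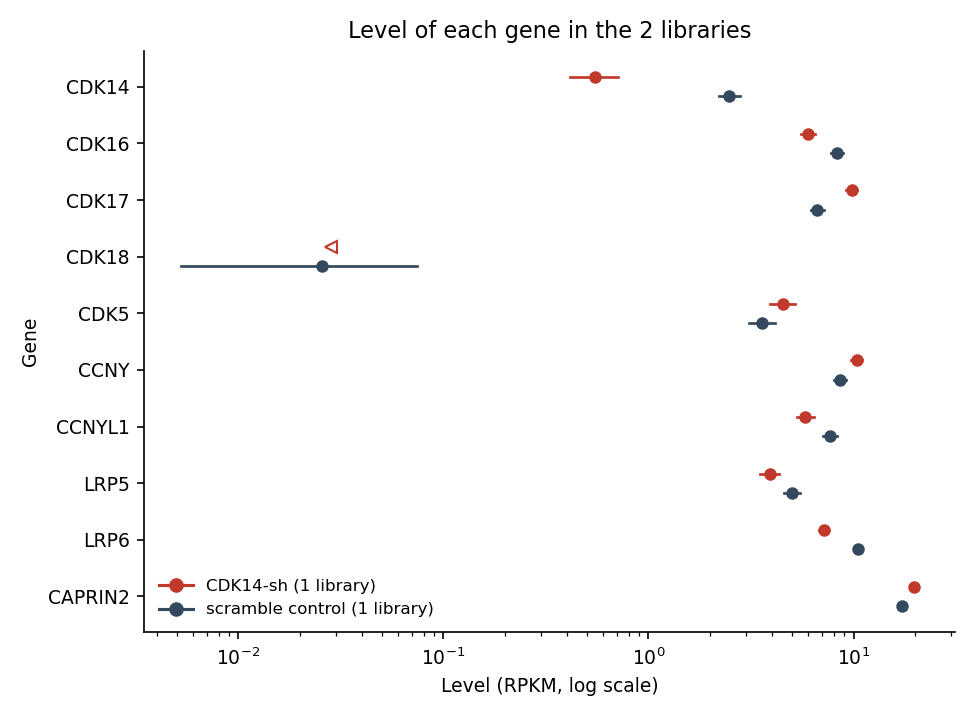
Level of each of the 10 genes in RPKM on a log axis, with CDK14-sh above the scramble control for each gene. Points are the single libraries, bars are 95% Poisson counting intervals, and the open triangle marks the 3-read limit for CDK18, which had 0 reads in CDK14-sh. CDK14 stands at 0.548 RPKM in CDK14-sh and 2.48 RPKM in the control, below the other genes except CDK18.

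Exons shared with other rows make up a small part of the CDK14 length, which does not bound their part of its reads. Exons of 3 rows on the same strand, CLDN12, CTB-13L3.1 and AC006153.3, overlap 201 of its 6841 exon bases (2.94%), and 97.1% of its length is its own. CLDN12 shares all 201 and the other rows 47 of them each. CLDN12, which encodes claudin 12 of cell junctions, stood at 9.91 RPKM in CDK14-sh and 8.74 RPKM in the scramble control. CTB-13L3.1 had 39 reads in CDK14-sh, against 46 with scramble, and AC006153.3 had 3 reads in CDK14-sh and 1 read in the scramble control. CLDN12 thus stood above CDK14, which had 0.548 RPKM in CDK14-sh and 2.48 RPKM in the scramble control. The shared bases may therefore hold a larger part of the CDK14 reads than of its length, above all in CDK14-sh. How reads in the shared bases were assigned was not tested, so the part of the 58 CDK14 reads in CDK14-sh that this concerns is unknown. If CLDN12 reads there were also counted for CDK14, the 22.1% would overstate the CDK14 level left in CDK14-sh.

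Only CDK14 passed 2-fold among the 9 genes with a counted level, and it was lower. The rule used log2 ratios of CDK14-sh over scramble with 0.1 RPKM added to each level, which makes differences between low levels look smaller. CDK14 stood at -1.99 on that scale. Of all 14878 rows that reached 1 RPKM, 3.47% were at least 2-fold lower and 3.21% at least 2-fold higher, against 1 and 0 of the 9 genes. The hairpin was directed at CDK14, and 0 of the other 8 genes passed. Their plain ratios of RPKM stayed within 1.47-fold in either direction, 4 above 1 and 4 below it, and none of the 8 counting intervals held 1. With no replicate culture, how far such ratios vary between cultures of the same kind is unknown.

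**Figure D2:**
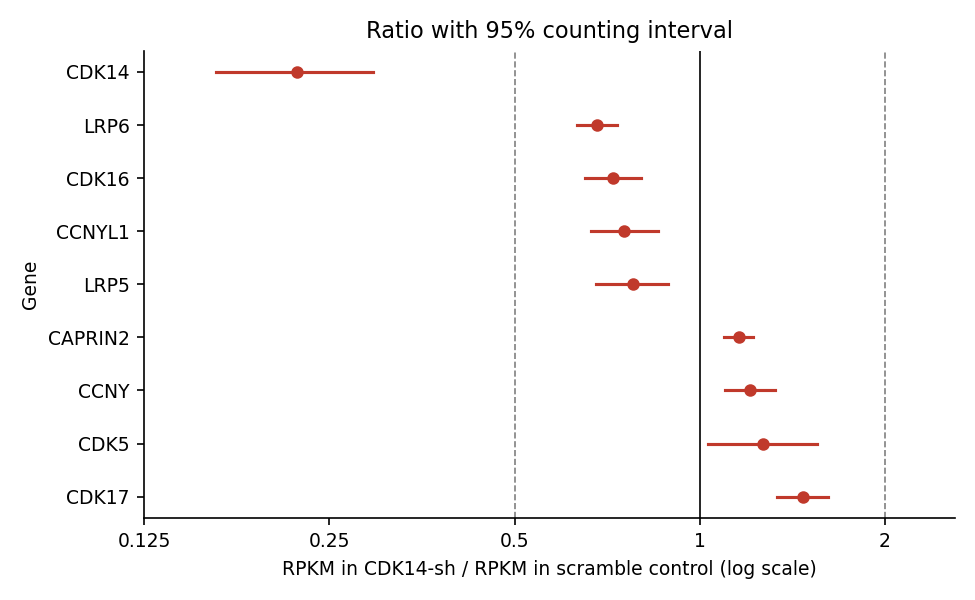
Ratio of RPKM in CDK14-sh to RPKM in the scramble control for the 9 genes with a counted level, on a log axis. Points are ratios of the 2 libraries, bars 95% Clopper-Pearson counting intervals, the solid line a ratio of 1 and the dashed lines 2-fold. CDK14 stands at 0.221, outside the dashed lines, and the other 8 lie between 0.681 and 1.47.

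The relatives of CDK14 among the kinases lay on both sides of 1. CDK17, the PCTAIRE kinase at chr12:96278261-96400560 on the minus strand, had 992 reads and 9.79 RPKM in CDK14-sh, against 750 reads and 6.65 RPKM in the scramble control. That is 1.47-fold higher (1.34 to 1.62). CDK16, its X-linked relative at chrX:47217860-47229997 on the plus strand, had 607 reads and 6.01 RPKM in CDK14-sh, against 934 reads and 8.31 RPKM in the scramble control. That is 1.38-fold lower (1.25 to 1.53). The order of the pair was opposite in the 2 libraries: the level of CDK17 was 1.63 times that of CDK16 in CDK14-sh (1.47 to 1.80) and 0.800 times in the scramble control (0.726 to 0.882). Such a ratio of genes within a library does not depend on how the libraries are scaled to each other. It does depend on the annotated exon lengths, which the counting intervals leave out, and so does which gene stood higher.

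CDK5, at chr7:151053812-151058530 on the minus strand, is better known for its work in neurons. It had 206 reads and 4.53 RPKM in CDK14-sh and 181 reads and 3.58 RPKM in the scramble control, 1.27-fold higher with the widest interval among the 8 (1.03 to 1.55). Its exons share 331 bases (11.3% of its length) with SLC4A2, an anion exchanger gene on the opposite strand, which stood at 7.09 RPKM in CDK14-sh and 7.84 RPKM in the scramble control. Whether counting used strand is not given in the sources used here, so reads of the pair in the shared bases cannot be told apart.

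Added up, the RPKM of CDK14, CDK16, CDK17 and CDK18 came to 16.3 in CDK14-sh, against 17.5 in the scramble control, a ratio of 0.936, while the make-up of the sum differed. CDK14 supplied 3.35% of it in CDK14-sh, against 14.2% in the scramble control. CDK17 supplied 59.9% in CDK14-sh, against 38.1% in the scramble control, and CDK16 36.8% in CDK14-sh, against 47.6% in the scramble control. In RPKM, CDK14 was lower by a difference of -1.93, CDK16 by -2.30 and CDK17 higher by 3.14. These are transcript levels per length and say nothing of the amount or activity of the proteins.

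The 2 cyclin Y genes differed in opposite directions. CCNY, which encodes the cyclin that CDK14 and CDK16 bind, lies at chr10:35247025-35572669 on the plus strand. It had 920 reads and 10.3 RPKM in CDK14-sh, against 847 reads and 8.57 RPKM in the scramble control, 1.21-fold higher (1.10 to 1.33). CCNYL1, which encodes a cyclin Y-like protein with overlapping roles in mice, lies at chr2:207711540-207761839 on the plus strand. It had 424 reads and 5.82 RPKM in CDK14-sh, against 625 reads and 7.71 RPKM in the scramble control, 75.5% of the control (66.6% to 85.5%). The sum of the pair was 16.2 RPKM in CDK14-sh and 16.3 RPKM in the scramble control, a ratio of 0.993. CCNY made up 64.0% of it in CDK14-sh, against 52.6% in the scramble control. Within a library, the level of CCNY was 1.78 times that of CCNYL1 in CDK14-sh and 1.11 times in the scramble control. The quotient of these ratios was 1.60, with a counting interval of 1.37 to 1.87.

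The CCNYL1 value carries a limit of its own. The row RP11-801F7.1 lies on the opposite strand with all of its 564 bases inside CCNYL1 exons, 12.0% of the CCNYL1 length. It had 88 reads in CDK14-sh, against 152 with scramble, 0.644 times the control level, so its ratio was below 1 like that of CCNYL1. Reads of the 2 rows in the shared bases cannot be told apart here.

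Set against its cyclin, CDK14 had the lower level per length in both libraries. The level of CDK14 was 0.0529 times that of CCNY in CDK14-sh (0.0399 to 0.0690) and 0.289 times in the scramble control (0.252 to 0.331). Per base of annotated exon, CCNY thus had more reads than CDK14 in the control cells as well.

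**Figure D3:**
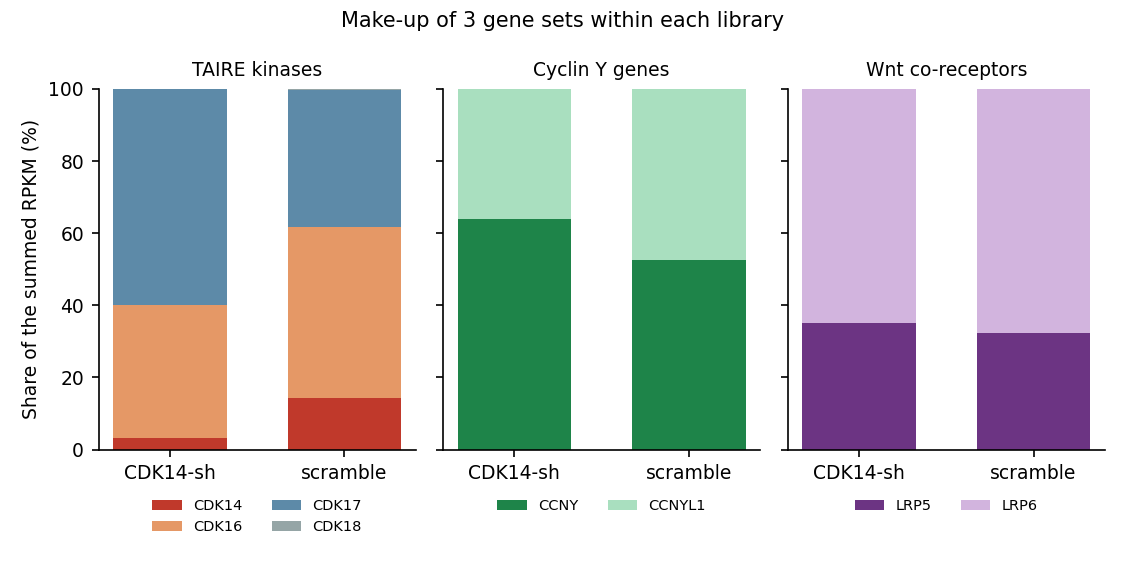
Share of the summed RPKM taken by each gene within 3 sets, with CDK14-sh left of the scramble control in each panel. Bars are single libraries and start at 0. CDK14 takes 3.35% of the kinase set in CDK14-sh and 14.2% in the control, CCNY 64.0% of the cyclin Y set in CDK14-sh and 52.6% in the control, and LRP5 35.2% of the co-receptor set in CDK14-sh and 32.3% in the control.

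Both Wnt co-receptors were lower in CDK14-sh. LRP6, at chr12:12116025-12267012 on the minus strand, encodes the receptor whose tail CDK14 phosphorylates. It had 1147 reads and 7.17 RPKM in CDK14-sh, against 1873 reads and 10.5 RPKM in the scramble control, 1.47-fold lower (1.36 to 1.58). LRP5, at chr11:68312609-68449275 on the plus strand, encodes the closely related co-receptor best known for its role in bone mass. It had 372 reads and 3.90 RPKM in CDK14-sh, against 532 reads and 5.01 RPKM in the scramble control, 1.29-fold lower (1.12 to 1.47). Together the pair stood at 11.1 RPKM in CDK14-sh and 15.5 RPKM in the scramble control, a ratio of 0.712. LRP6 was 1.84 times as high as LRP5 in CDK14-sh (1.63 to 2.07) and 2.10 times in the scramble control (1.91 to 2.32). The quotient of these ratios was 0.876, with a counting interval of 0.753 to 1.02 that held 1. The interval covers counting error only, and with 1 library per group a difference in the balance of the pair was not tested. Exons of the LRP5 and LRP6 rows overlap no other row.

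CAPRIN2 was the highest of the 10 genes in both libraries and had the ratio nearest to 1 among the 9. Its row spans chr12:30709552-30754951 on the minus strand. It had 2576 reads and 19.8 RPKM in CDK14-sh, against 2477 reads and 17.1 RPKM in the scramble control, 1.16-fold higher (1.09 to 1.22).

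Levels per length can be put in order within each library. The order also depends on the annotated exon lengths, which the counting intervals leave out. In CDK14-sh the order from the top was CAPRIN2, CCNY, CDK17, LRP6, CDK16, CCNYL1, CDK5, LRP5, CDK14 and CDK18. Counting intervals of neighbours overlapped there for CCNY and CDK17, for CDK16 and CCNYL1, and for CDK5 and LRP5. In the scramble control the order was CAPRIN2, LRP6, CCNY, CDK16, CCNYL1, CDK17, LRP5, CDK5, CDK14 and CDK18. Intervals of neighbours overlapped for CCNY and CDK16, for CDK16 and CCNYL1, and for CCNYL1 and CDK17. CAPRIN2 stood first and CDK14 and CDK18 last in both, while LRP6 stood below CDK17 in CDK14-sh and above it in the scramble control.

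**Figure D4:**
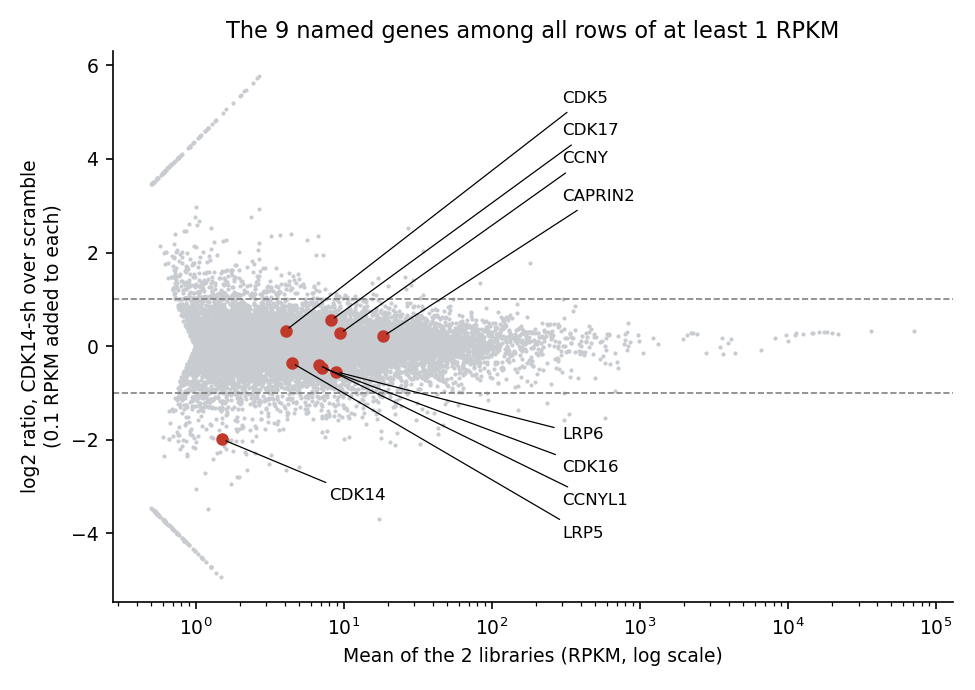
Log2 ratio of CDK14-sh over scramble, with 0.1 RPKM added to each level, against the mean RPKM of the 2 libraries on a log axis. Grey points are the 14878 rows of at least 1 RPKM in the higher library, red points the 9 named genes and dashed lines 2-fold. CDK14 lies at -1.99, below the lower line, and the other 8 genes lie between -0.55 and 0.55.

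The ratios can also be read against those of all rows. The interquartile range of the 14878 rows lay between -0.22 and 0.29 on the log2 scale, around a median of 0.04. CDK17 stood at 0.55, at percentile 89.8 of all rows, CDK5 at 0.33 (78.6), CCNY at 0.27 (73.4) and CAPRIN2 at 0.21 (68.0). In the other direction LRP5 stood at -0.35, at percentile 17.4, CCNYL1 at -0.40 (15.3), CDK16 at -0.46 (13.1) and LRP6 at -0.55 (10.5). CDK14 stood at percentile 0.766. Each of the 9 ratios kept its sign under the 4 other scalings of the libraries, the nearest to 0 being CAPRIN2 at 0.06 in TPM.

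The 4 protein-coding rows of at least 30 reads whose log2 ratio lay nearest to that of CDK14 were STARD3NL, KRT86, LIFR and CD55, at a distance of at most 0.03 on that scale. Without the added 0.1 RPKM they lay further apart, at 4.06-, 5.12-, 4.51- and 3.94-fold lower in that order, against 4.53-fold for CDK14. STARD3NL, which encodes a late endosome protein and also lies on chromosome 7, had 268 reads in CDK14-sh, against 1209 with scramble. LIFR, the receptor of leukemia inhibitory factor, had 125 reads in CDK14-sh, against 627 with scramble. CD55, a regulator of complement at the cell surface, had 620 reads in CDK14-sh, against 2716 with scramble. KRT86, a hair keratin gene with near-identical copies that may share its reads, had 10 reads in CDK14-sh, against 57 with scramble. With 2 libraries this likeness rests on 1 ratio per gene.

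Genes around CDK14 and its cyclins were taken from lists of the same families and of proteins that act on them. Of the other cyclin-dependent kinases, 15 of 21 rows reached 1 RPKM, with a median log2 ratio of -0.07 against 0.04 for all rows. Of the 15, 0 passed 2-fold in either direction, against 3.47% lower and 3.21% higher of all rows, too few to set this list apart. The highest were CDK11B, at 56.4 RPKM in CDK14-sh and 58.8 RPKM in the scramble control, and CDK11A, at 39.6 RPKM in CDK14-sh and 41.6 RPKM in the scramble control. These are near-identical neighbouring genes of RNA processing kinases whose reads may be split between them. Of the other cyclins, 24 of 28 rows reached 1 RPKM, with a median of -0.01. Of the 24, 1 was at least 2-fold lower and 0 higher, against 3.47% and 3.21% of all rows. The lower one was CCNG2, encoding cyclin G2, a cyclin tied to cell cycle arrest, with 191 reads in CDK14-sh, against 563 with scramble, 2.65-fold lower (2.24 to 3.14). CCND1, encoding cyclin D1, was the most abundant cyclin transcript at 209 RPKM in CDK14-sh and 136 RPKM in the scramble control, followed by CCNB1, encoding mitotic cyclin B1, at 55.0 RPKM in CDK14-sh and 72.4 RPKM in the scramble control. The CDK5 activator genes CDK5R1, which encodes p35, and CDK5R2, which encodes p39, were below 1 RPKM in both libraries. CDK5R1 had 38 reads in CDK14-sh, against 50 with scramble, and CDK5R2 had 15 reads in CDK14-sh, against 8 with scramble.

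The next list holds genes whose products phosphorylate, fold or bind LRP5 and LRP6, or act beside them in the pathway. Of 27 rows of these kinases, scaffold proteins and chaperones, 24 reached 1 RPKM, with a median log2 ratio of 0.05. With the settings used here 8 of the 24 lay below 0, against 45.3% of all rows. In TPM, where the median of all rows was -0.11, 15 of 25 did. Of the 24, 1 was at least 2-fold lower and 0 higher, against 3.47% and 3.21% of all rows. The lower one was AXIN2, a scaffold protein of the beta-catenin destruction complex and itself a Wnt target, with 28 reads in CDK14-sh, against 93 with scramble, 2.99-fold lower (1.94 to 4.73). With 1 RPKM added to each level AXIN2 no longer passed 2-fold, and its exons overlap another row. CTNNB1, encoding beta-catenin, stood at 64.3 RPKM in CDK14-sh and 58.5 RPKM in the scramble control. CSNK1A1, encoding casein kinase 1 alpha, stood at 22.5 RPKM in CDK14-sh and 20.1 RPKM in the scramble control. GSK3B, which encodes a kinase that also phosphorylates PPPSP motifs, stood at 7.92 RPKM in CDK14-sh and 7.54 RPKM in the scramble control, and MESDC2, the chaperone needed to fold LRP5 and LRP6, at 6.32 RPKM in CDK14-sh and 8.86 RPKM in the scramble control. GSK3B and MESDC2 were named for these roles after their values were seen.

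A further list held Wnt receptors and regulators at the cell surface (Frizzled and R-spondin receptors, the ubiquitin ligases RNF43 and ZNRF3, and regulators of LRP5 and LRP6). Of its 21 rows 10 reached 1 RPKM, with a median of -0.08. Of the 10, 0 passed 2-fold, against 3.47% lower and 3.21% higher of all rows, too few to set this list apart. In TPM 2 of 12 rows of the list were at least 2-fold lower and 0 higher, against 6.61% and 3.57% of all rows. The lower ones were the R-spondin receptor genes LGR4 and LGR6, named after their values were seen. LGR4 stood at 6.67 RPKM in CDK14-sh and 12.7 RPKM in the scramble control, and LGR6 had 10 reads in CDK14-sh, against 47 with scramble. FZD3, also named after its values were seen and below 1 RPKM in both libraries, went the other way. It had 102 reads in CDK14-sh, against 31 with scramble, 3.66-fold higher (2.43 to 5.66). DKK1, a secreted antagonist that binds LRP5 and LRP6, stood at 59.4 RPKM in CDK14-sh and 62.0 RPKM in the scramble control, above the level of either co-receptor. FZD6, the Frizzled gene with the highest level, stood at 19.2 RPKM in CDK14-sh and 15.0 RPKM in the scramble control.

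Among other receptors of the LRP type, 7 of 12 rows reached 1 RPKM. Their median was -0.27 with 5 of 7 below 0, against 45.3% of all rows. Of the 7, 1 was at least 2-fold lower and 0 higher, against 3.47% and 3.21% of all rows. The lower one was LRP11, whose exons overlap another row, with 156 reads in CDK14-sh, against 411 with scramble, 2.37-fold lower (1.97 to 2.87). LRP10 stood at 9.84 RPKM in CDK14-sh and 11.9 RPKM in the scramble control. LRP8, a receptor for reelin whose exons also overlap another row, stood at 6.10 RPKM in CDK14-sh and 6.53 RPKM in the scramble control.

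The 14-3-3 proteins bind phosphorylated cyclin Y, and all 7 of their genes reached 1 RPKM. Each of the 7 log2 ratios lay below 0, under every scaling tried, with a median of -0.45, and 1 was at least 2-fold lower. Of all rows, 45.3% lay below 0 and 3.47% were at least 2-fold lower. The 14-3-3 gene past 2-fold was SFN, encoding 14-3-3 sigma, with 170 reads in CDK14-sh, against 828 with scramble, 4.38-fold lower (3.71 to 5.20). YWHAE stood at 251 RPKM in CDK14-sh and 302 RPKM in the scramble control, and YWHAZ at 159 RPKM in CDK14-sh and 196 RPKM in the scramble control. Among relatives of CAPRIN2, CAPRIN1, an RNA-binding partner of the G3BP proteins of stress granules, stood at 45.9 RPKM in CDK14-sh and 52.1 RPKM in the scramble control. G3BP2, a stress granule protein, stood at 40.7 RPKM in CDK14-sh and 49.9 RPKM in the scramble control, and 0 of the 3 relatives passed 2-fold with the settings used here. G3BP1, the third and named after its values were seen, stood at 16.8 RPKM in CDK14-sh and 31.3 RPKM in the scramble control, 1.86-fold lower. In TPM it was at least 2-fold lower, 1 of the 3, against 6.61% of all rows. Exons of CDK11A, CDK11B, CCND1, CSNK1A1, FZD6, G3BP1 and G3BP2 also overlap other rows, so reads in shared bases may not be theirs alone.

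**Figure D5:**
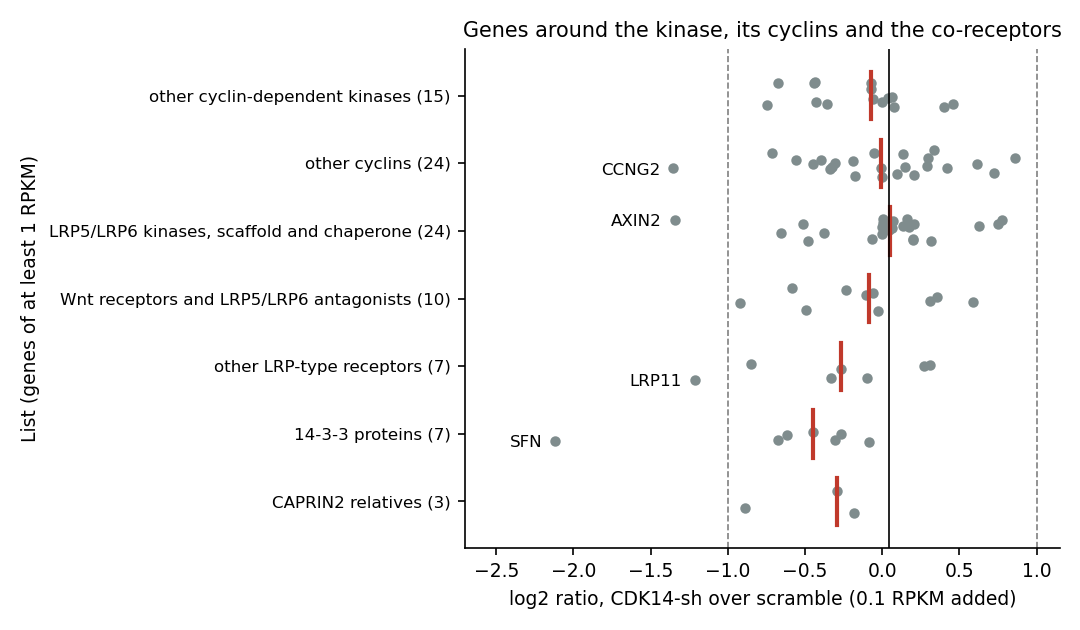
Log2 ratio of CDK14-sh over scramble, with 0.1 RPKM added to each level, for genes of 7 lists that reached 1 RPKM. Grey points are genes, red bars list medians, the solid line the median of all rows (0.04) and dashed lines 2-fold; vertical scatter is for display. CCNG2, AXIN2, LRP11 and SFN lie beyond the lower dashed line, and the 14-3-3 median stands at -0.45.

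The 10 genes were searched for 4 words of 7 bases that are frequent in the 3' untranslated regions (UTRs) of the lower transcripts of this table. They were GTCATGC with its shifted form TCATGCA, and ATCCATA with its shifted form TCCATAA, each pair overlapping by all but 1 letter. The words were picked earlier from these same ratios, so their link with lower ratios is not a result here. The search covered the strand of the transcript. At least 1 word occurred in the longest 3' UTR of 25.1% of 10355 protein-coding genes. The share was 56.7% of those at least 2-fold lower, 24.5% of those within 2-fold and 15.7% of those at least 2-fold higher. CDK14 itself carried 0 of the words in its 3454-base 3' UTR, and CDK16, CDK17, CDK18, CDK5 and LRP5 carried none. The other 4 genes carried at least 1: CCNY and CAPRIN2, which were higher, and CCNYL1 and LRP6, which were lower. LRP6 had the longest 3' UTR of the 10, 5101 bases against a median of 1358 in the genes searched, and held 3 sites. Also above that median were CCNY (3499) and CCNYL1 (2476), and, without any word, CDK14 (3454), CDK17 (1981) and CDK18 (1415). CAPRIN2 (890) lay below it, and shares in genes of like length were not compared. Sites of the words found both in a higher and in a lower gene are shown, with the word in capitals and 9 bases either side.
LRP6 (TCATGCA): agtaactgtTCATGCAagttaaaaa
CCNY (TCATGCA): gatgtgcctTCATGCAtgaggtgag
CAPRIN2 (TCATGCA): tgctagcaaTCATGCAattcttcag
CCNYL1 (TCCATAA): ccttgtatcTCCATAAaatgccctc
CCNY (TCCATAA): aaagtggatTCCATAAaaccagact
A matching word is a description of the sequence, and its part in any of these ratios was not tested.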

How the data were processed

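Total RNA went through a stranded mRNA library kit, per the labels' protocols. The authors deposited RPKM values in 1 table that also lists exon positions and lengths, per the file headers. Builds GRCh38 and mm8 and the tools Subread 1.5.1, featureCounts and Bowtie 0.12.2 appear in the submitters' processing notes, with no roles. Start and end of all 10 rows equalled GENCODE v29 on GRCh38, so coordinates are on that build. The sources used here give no options for strand, overlaps or multiply mapped reads.

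RPKM times length gave whole reads (within 0.01) for 100% of nonzero values, summing to 15478156 and 17217564. In place of a count test, which needs replicates, ratios carry 95% intervals from these reads. PCR copies are not independent molecules. Overlap was measured between merged exons on either strand. The interval of a quotient of ratios used a normal approximation on the log scale.

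The genes, lists and words were chosen with earlier results of these data known. Named besides the 10 genes were rows overlapping them, list members past 2-fold, the 2 highest of each list and the 4 nearest ratios. CDK5R1, CDK5R2, GSK3B, MESDC2, G3BP1, LGR4, LGR6 and FZD3 are additions. A further gene was taken out of a list and is not reported here. Recovery of reads, intervals and calls was tested on simulated data. Software was pandas 2.3.3, scipy 1.17.1, numpy 2.4.6 and matplotlib 3.10.9 under Python 3.11.15.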

Additional observations from a re-analysis of the deposited data

How the results depend on the processing

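No paired analysis was possible because there was only 1 library for each group. Of 11 alternatives, 1 (protein-coding rows) was chosen after seeing the data. The log2 ratio of CDK14 was -1.99 and ranged from -2.21 to -1.17 over 8 alternatives. The end at -1.17 came from adding 1 RPKM, which is large beside the levels of CDK14. The count of genes at least 2-fold lower was 1, and 0 over rows whose exons overlap no other, where CDK14 itself does not enter. It was 1 in the other alternatives, a threshold of 1.5-fold included, and 0 genes were higher in each. For the other 8 genes, 60 of 64 alternative values stayed within the counting interval and 0 changed sign. Leaving out the level filter, or asking for 30 reads, changes only which rows enter, so values of a gene could not move there. The 4 values outside the counting interval were in TPM, which lowers each ratio by a shift of -0.15 before the added 0.1. They were CDK17 at 0.40, CCNY at 0.12, LRP6 at -0.70 and CAPRIN2 at 0.06. The share of all rows at least 2-fold higher and lower, 3.21% and 3.47%, was 1.18% and 1.74% with 1 RPKM added, 7.38% and 6.94% without the level filter, 1.39% and 2.23% for rows of 30 reads or more, 3.57% and 6.61% in TPM, and 1.05% and 2.17% over protein-coding rows. At 1.5-fold it was 9.11% and 9.55%. In TPM 2 of 7 other receptors of the LRP type were at least 2-fold lower. Of Wnt receptors and co-receptor regulators with 30 reads or more, 1 of 15 was higher and 1 lower. Depth limits CDK18 most, at 3 reads or fewer, and CDK14 in CDK14-sh, at 58 reads.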
